A study of Mus musculus with 8 samples.

Results

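Matrix metalloproteinases, ADAMTS proteases and their tissue inhibitors were described in RNA of whole mouse skin. The members are the 46 protein-coding genes of the count table whose symbols begin with Mmp, Timp or Adamts followed by a digit, out of 56748 genes in all. They comprise 23 Mmp, 4 Timp and 19 Adamts genes. Skin came from 8 untreated male mice aged 35 weeks, 1 library per mouse. The 3 mice of the NPY-tet group were NPY tet/tet animals of the B6;129S4-Npytm2Rpa/J line, whose Npy gene carries a tetracycline-regulated allele on both chromosomes. Their 5 siblings without the allele (NPY +/+) are called WT. Npy encodes neuropeptide Y, a transmitter of sympathetic nerves, and the series concerns inflammation and fibrosis of skin that makes too much of it. The labels name no driver that would limit the allele to a cell type. Values below are given in replicate order, WT 1 to 5 and NPY-tet 1 to 3.

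Matrix metalloproteinases are zinc-dependent proteases, mostly made as inactive precursors, that cut collagens, gelatin, elastin, laminins and many signalling proteins. ADAMTS proteases are secreted relatives with thrombospondin repeats: some remove the amino-terminal propeptides of fibrillar procollagens, others cut the large proteoglycans versican and aggrecan. TIMPs bind the active site and block it. In skin these families are known for turnover of dermal collagen, wound repair and remodelling around the hair follicle. RNA levels report neither activation nor inhibition of the enzymes.

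Libraries held 31370433 to 47495565 counts. Npy had 5 to 15 counts in WT and 10394 to 11864 in NPY-tet libraries. All 10 keratinocyte and all 10 fibroblast markers were detected in every library. The libraries fell into a pair of sets that the labels do not give. WT 4, NPY-tet 2 and NPY-tet 3 had under 1% of their counts in ribosomal RNA genes (rRNA-poor), and the other 5 had 6.44% to 8.07% (rRNA-rich). Growing hair also varied. The mean log2 CPM of 15 hair markers, called the hair score, was 3.08, -1.67, -0.26, -0.67 and 7.41 in the WT mice and 5.66, 6.96 and 3.58 in the NPY-tet mice. CPM are counts scaled to library size. In NPY-tet 1 the fibroblast markers summed to 2922 CPM, against 11009 to 25998 CPM in the other 7 libraries. In bulk tissue, fewer cells of a type and less RNA per cell cannot be told apart.

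Of the Mmp genes, 10 lie side by side on chromosome 9 within 427 kb (chr9:7272514-7699586, mm39 build). RefSeq windows of 300 bases (250 before to 50 after a transcription start, GRCm38.p6 build) were matched to 32 of the 46 members, with 35 starts. The letters TGAGTCA, a binding motif of the Fos and Jun proteins (AP-1), were searched on both strands. They occurred in 7 of the 12 windows of the cluster (58.3%), in 0 of the 23 windows of other members and in 5.20% of all 32851 windows. TATAAA, the core of the TATA box, occurred on either strand in 75.0% of the cluster's windows, 8.70% of the other members' and 13.6% of all. A match of letters describes the window and shows no binding. The 7 matches are shown because genes that share them range here from the fourth most abundant member to a pair with no count. The motif is in capitals with 20 bases on either side, 5′ to 3′ in the direction of the gene. TGACTCA in Mmp13 is the same motif on the opposite strand.
Mmp13: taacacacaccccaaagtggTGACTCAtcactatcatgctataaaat
Mmp12: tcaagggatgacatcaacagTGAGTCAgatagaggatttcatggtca
Mmp1b: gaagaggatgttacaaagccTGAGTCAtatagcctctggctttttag
Mmp3: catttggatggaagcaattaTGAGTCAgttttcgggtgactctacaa
Mmp1a: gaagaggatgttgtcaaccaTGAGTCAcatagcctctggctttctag
Mmp10: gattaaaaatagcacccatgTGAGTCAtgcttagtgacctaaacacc
Mmp7: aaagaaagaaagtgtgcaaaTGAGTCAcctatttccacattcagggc

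In GRCm38.p6 these stretches lie at chr9:7272459-7272505 (Mmp13), chr9:7347310-7347356 (Mmp12), chr9:7388093-7388139 (Mmp1b, minus strand), chr9:7445756-7445802 (Mmp3), chr9:7464048-7464094 (Mmp1a), chr9:7502259-7502305 (Mmp10) and chr9:7692007-7692053 (Mmp7). Each motif begins 35 to 93 bases before a start site. Mmp12 and Mmp7 each have 2 starts in the table, and 1 of them holds the motif.

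**Figure D1:**
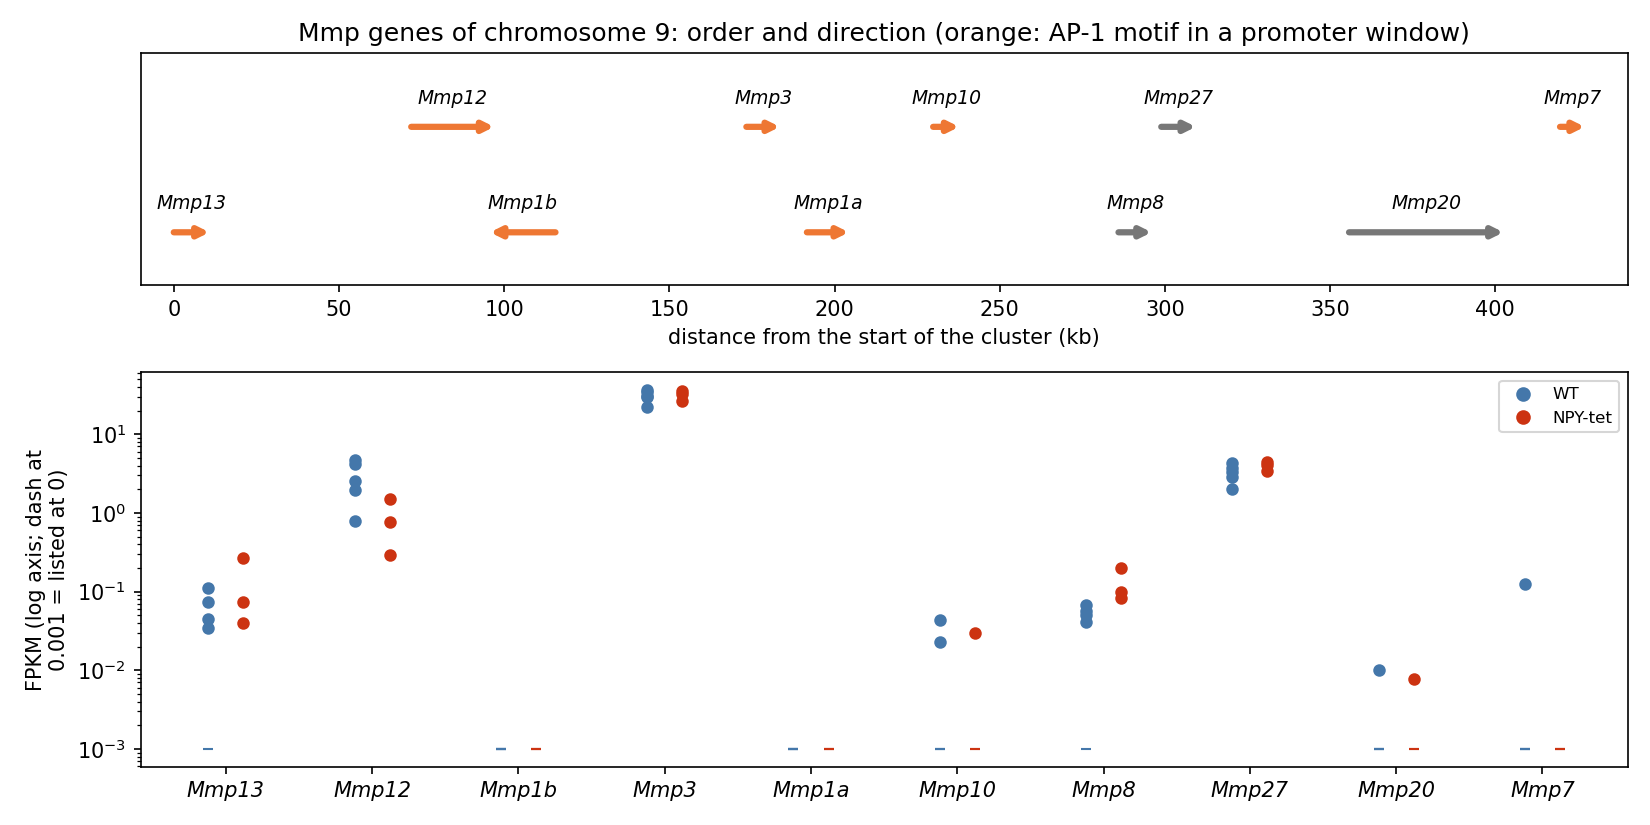
The 10 Mmp genes of chromosome 9 by distance in kb (top, arrows give the direction of transcription, orange marks the AP-1 motif in a promoter window) and their FPKM in each library on a log axis (bottom, coloured by genotype). Mmp3 is at 22.4 FPKM or more in every library, whereas Mmp1a and Mmp1b, which also carry the motif, are listed at 0 throughout.

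Genes of the cluster with the motif differed widely in level. Levels are compared between genes as FPKM, which scale counts to gene length and library size. Mmp3, which encodes stromelysin 1, averaged 31.1 FPKM over the 8 libraries. Mmp27, which lacks the motif, and Mmp12 averaged 3.53 and 2.09 FPKM. The other 7 genes lay at or under 0.0809 FPKM. Mmp1a and Mmp1b, rodent relatives of human collagenase 1, had 0 counts in all 8 libraries, which allows up to 0.0104 CPM (3 counts over the 8 libraries, counting error only). The cluster made up 16.2% of the summed FPKM of the Mmp family. Mmp12 and Mmp1b overlap by 1261 bases on opposite strands, and the libraries do not mark strand.

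A few genes carried most of the RNA of each family. Timp2, an inhibitor that also takes part in activating the gelatinase made from Mmp2, was the most abundant member at 302 FPKM, 88.6% of the summed Timp level. Timp3, whose product binds the matrix, Timp4 and Timp1 averaged 20.5, 15.9 and 2.26 FPKM. Mmp2 came second at 105 FPKM, 46.1% of the summed Mmp level. Mmp14, whose membrane-bound product activates the Mmp2 gelatinase, followed at 33.5 FPKM. Adamts2, the main procollagen N-proteinase, averaged 31.05 FPKM, 51.1% of the summed Adamts level. The proteoglycan-cleaving enzymes Adamts5 and Adamts1 stood at 9.07 and 7.35 FPKM.

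**Figure D2:**
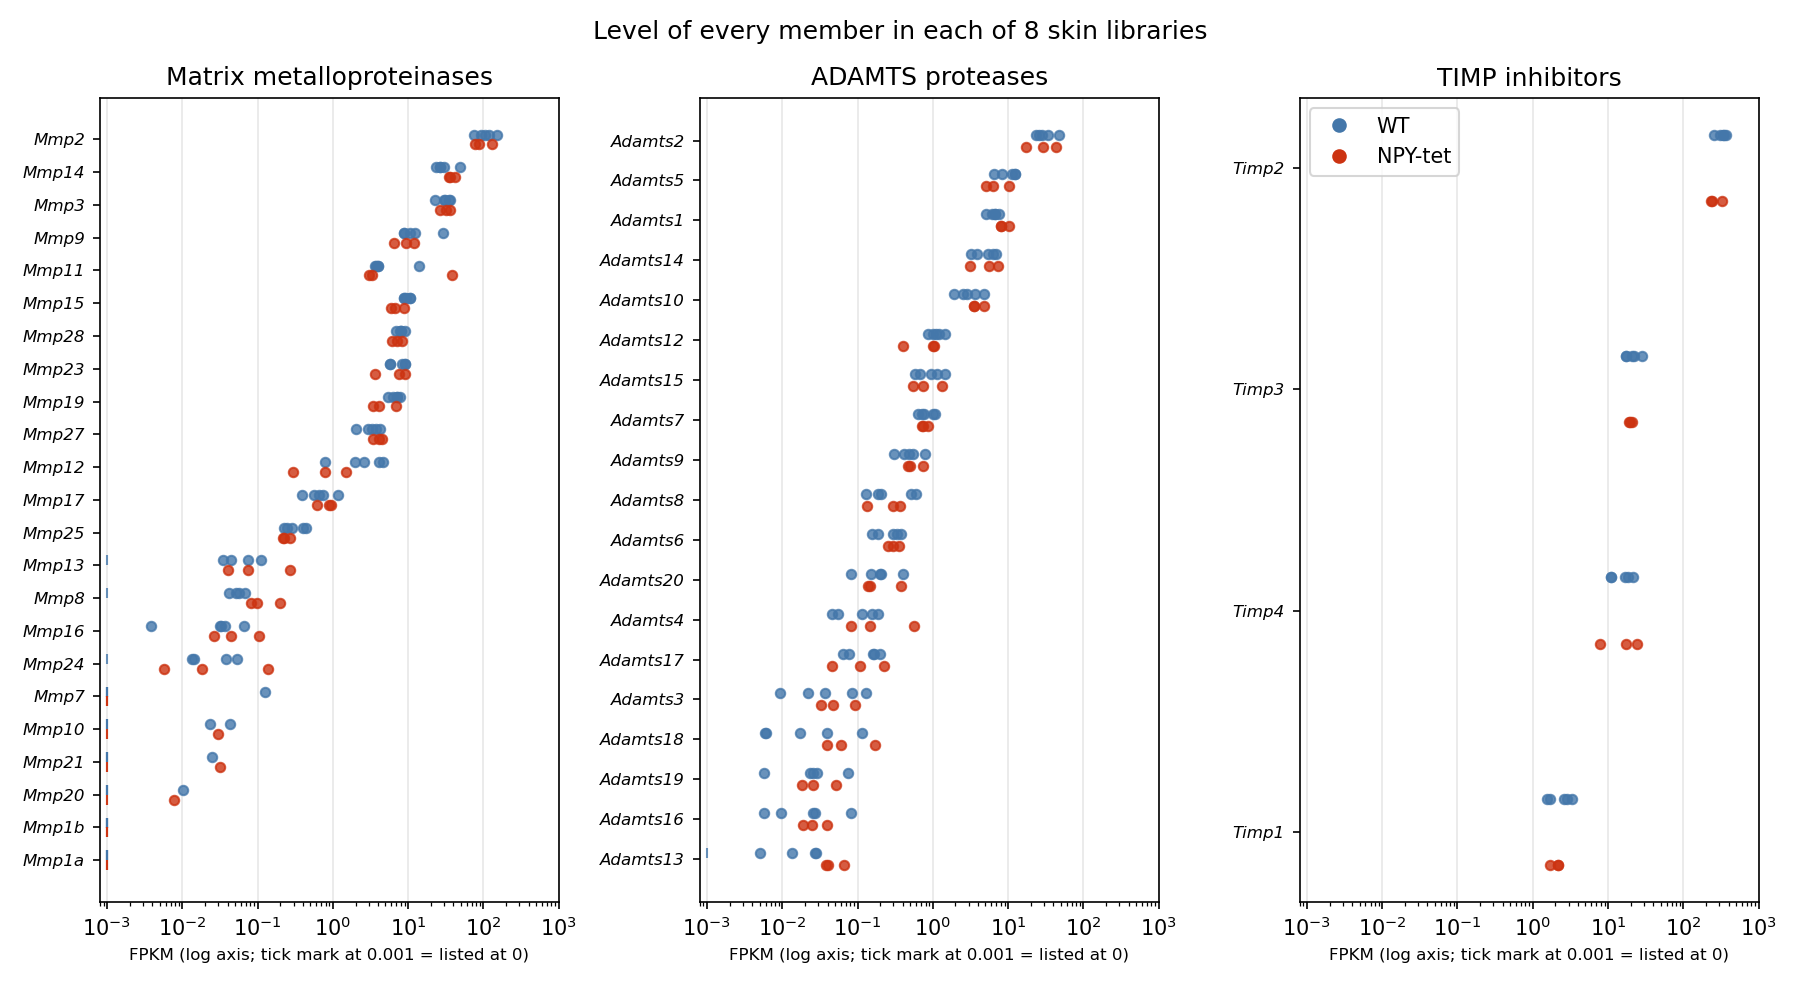
FPKM of all 46 members on a log axis, 1 point per library coloured by genotype, by family. Timp2 stands between 232 and 365 FPKM, the highest of all members.

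Family totals overlapped between the genotypes. Summed Mmp FPKM was 230.1 ± 47.7 in WT (SD, n = 5) and 223 ± 34.1 in NPY-tet skin (SD, n = 3). The Timp sum was 362 ± 44.1 and 305 ± 59.8, and the Adamts sum 61.4 ± 8.59 and 59.6 ± 15.2, over the same mice. Per mouse, the ratio of the Mmp to the Timp sum was 0.66, 0.58, 0.57, 0.61 and 0.73 in WT and 0.77, 0.74 and 0.70 in NPY-tet mice. The 3 NPY-tet ratios were among the 4 highest, with WT 5 inside their range. These sums were not tested.

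No member differed between genotypes past the threshold. Of the 46 members 35 had enough counts to be tested: 14 Mmp, 4 Timp and 17 Adamts genes. Of these 0 had an adjusted p under 0.05 in edgeR's quasi-likelihood test, adjusted over 18495 genes, of which 0.00541% passed, that is Npy alone. The smallest adjusted p of a member was 0.708. DESeq2 called 0 members and 0.299% of its genes. It gave Mmp11 no adjusted p, so that gene was not assessed there. The ribosomal RNA content (as rich or poor set) or the hair score was also entered as a further term. There edgeR called 0 members, and 0.0595% and 0.00541% of all genes.

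At an unadjusted p under 0.05 there were 3 of 35 members, against 5.99% of all genes. Adamts1 was higher in NPY-tet skin (2.43% of all genes), and Mmp15 and Mmp19 were lower (3.56% of all genes). The only tested member whose CPM did not overlap between the genotypes was Adamts1, which was higher. Of all genes 3.78% did not overlap, 1.81% higher and 1.98% lower. Without NPY-tet 1 the unadjusted calls were 1 of 36 members, Mmp12, beside 628 of 19023 genes. Without WT 5 they were 7 of 34 members, beside 1659 of 18207 genes. Fold changes are given as log2 of the NPY-tet to WT ratio, with a standard error (SE). Their median was -0.15 over tested Mmp, -0.18 over Timp and 0.040 over Adamts genes, beside 0.0041 over all genes. The signs of 2 of these medians were not stable: that of Mmp was 0.027 by DESeq2 and 0.029 with no filter on low counts, which add low genes. That of Adamts was -0.080 with a stricter filter, -0.30 with the hair score as a term and -0.57 among rRNA-rich against 0.35 among rRNA-poor libraries. Estimates were positive for 6 of 14 Mmp, 1 of 4 Timp and 10 of 17 Adamts genes.

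**Figure D3:**
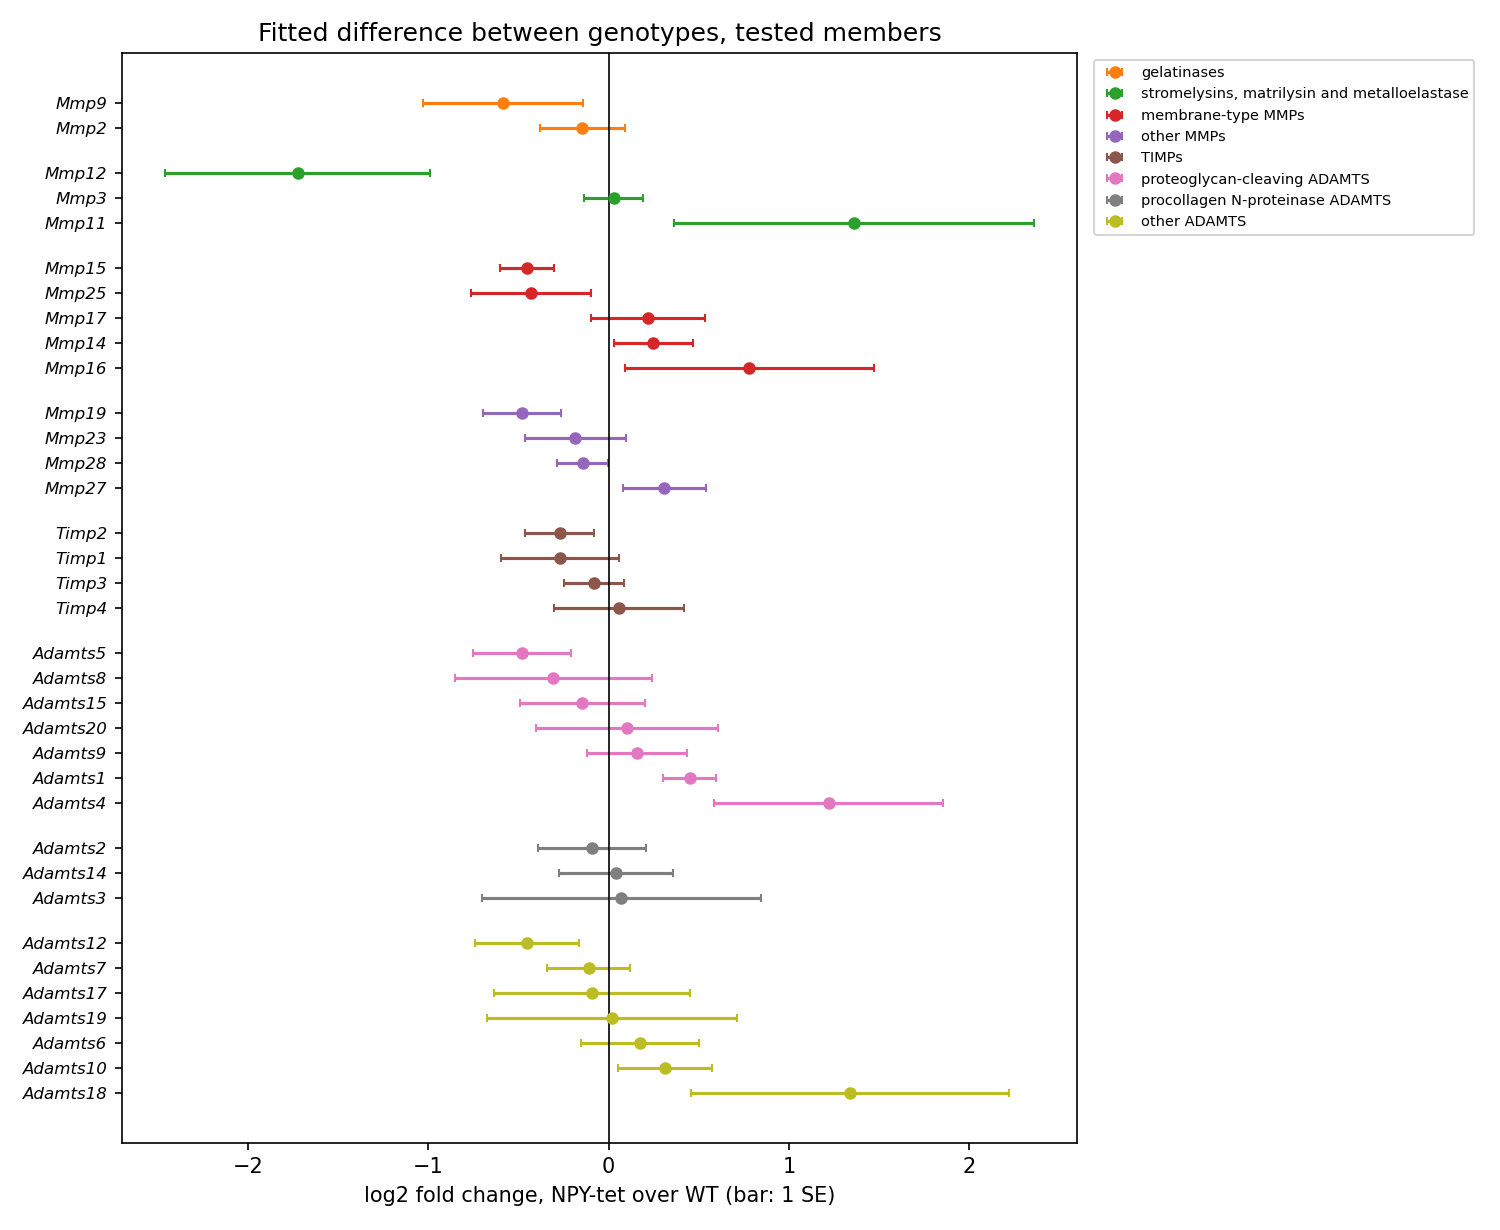
Log2 fold change of NPY-tet against WT for the 35 tested members, grouped by role, with bars of 1 SE. Estimates run from -1.72 (Mmp12) to 1.36 (Mmp11), and both of these have wide bars.

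Collagenases, which cut intact fibrillar collagen, were at the edge of detection. Mmp8, the neutrophil collagenase, had 4, 4, 0, 7 and 5 counts in the WT and 19, 9 and 7 in the NPY-tet mice. Mmp13, collagenase 3, had 3, 8, 0, 6 and 9 counts in the WT and 28, 4 and 7 in the NPY-tet mice. Both had their most counts in NPY-tet 1, and neither had enough for the test. In that library 9 neutrophil markers (without Mmp8) summed to 20.4 CPM, against 4.98 to 7.12 CPM in the others. Of these markers Ly6g, Stfa2, Ltf and Camp were at 0 in 1 library or more, and their part in the Mmp8 counts was not tested.

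Gelatinases cut denatured collagen and basement membrane collagen. Mmp2, largely a fibroblast product, stood at 409.7, 258, 312, 359 and 517 CPM in the WT and 262, 302 and 442 CPM in the NPY-tet mice. The NPY-tet values all lay inside the WT range, with a log2 fold change of -0.15 (SE 0.24). Mmp9 stood at 44.8, 38.4, 31.4, 102 and 31.8 CPM in the WT and 33.5, 22.9 and 43.2 CPM in the NPY-tet mice, and is named because it passed in a subset below, a choice made after its values were seen. WT 4 was far above the rest, and the other libraries overlapped. Over all 8 mice the log2 fold change was -0.59 (SE 0.44; adjusted p 0.818 by edgeR), and -0.14 without WT 4.

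Within the rRNA-poor libraries alone 3 members passed, Mmp9, Mmp12 and Adamts18, where 1.17% of all genes did. The WT arm there is a single mouse, WT 4, so spread among WT mice could not be measured. The p-values of that fit rest on a spread estimated across genes, not on that of each gene among the mice. No conclusion is drawn from them. The log2 fold change of Mmp9 was -1.64 there, set against its 1 high WT mouse, and -0.11 within the rRNA-rich libraries. Within the rRNA-rich libraries alone 1 member passed, Adamts12, where 1.66% of all genes did. There the NPY-tet arm is a single mouse, NPY-tet 1.

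Mmp12, which encodes macrophage metalloelastase, had the most negative estimate of the families (chr9:7344381-7369499, mm39). It stood at 34.6, 18.8, 30.4, 14.4 and 5.71 CPM in the WT and 10.99, 2.17 and 5.68 CPM in the NPY-tet mice. The 4 highest values were WT, and WT 5 lay inside the NPY-tet range. Its log2 fold change was -1.72 (SE 0.73), with an adjusted p of 0.794 by edgeR. Within the rRNA-rich libraries it was -1.004, and within the rRNA-poor ones -1.89, where WT 4 is the only WT mouse. Of 10 macrophage markers, all tested and all detected in every library, 8 had negative estimates. By edgeR 0 passed. At an unadjusted p under 0.05 by edgeR 5 were lower and 1 higher, or 60% beside 5.99% of all genes. With no overlap 3 were lower, or 30% beside 1.98% of all genes. By DESeq2 1 passed, Folr2, beside 0.299% of its genes. Their summed level was 667 to 951 CPM in WT and 462 to 754 CPM in NPY-tet libraries, and their part in the Mmp12 values was not tested.

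Stromelysins act on many matrix proteins. Mmp3 was steady, at 57.2, 40.8, 54.6, 63.3 and 65.5 CPM in the WT and 48.3, 58.5 and 65.3 CPM in the NPY-tet mice, with a log2 fold change of 0.028 (SE 0.16). Mmp11, stromelysin 3, is activated inside the cell. It stood at 11.3, 10.5, 10.05, 11.1 and 38.6 CPM in the WT and 108, 9.21 and 8.41 CPM in the NPY-tet mice. NPY-tet 1 and WT 5 were high, and the other 6 libraries lay between 8.41 and 11.3 CPM. Its log2 fold change was 1.36 (SE 0.999) and -0.89 without NPY-tet 1. Mmp11 overlaps Chchd10 by 3367 bases on the opposite strand, and reads from the overlapping stretch cannot be told apart by strand. Chchd10 had 4421 counts in NPY-tet 1, inside its range of 3392 to 5832. Mmp7 had 4 counts, all in WT 3, and Mmp10 at most 3.

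Membrane-type enzymes act at the cell surface. Mmp14 stood at 184, 143, 160.5, 159 and 295 CPM in the WT and 214, 208 and 249 CPM in the NPY-tet mice. All 3 NPY-tet values exceeded 4 of the 5 WT values, and WT 5 was the highest of all. The estimate was 0.25 (SE 0.22). Mmp15 (ENSMUSG00000031790, chr8:96078896-96101708, mm39) stood at 58.50, 48.29, 57.68, 51.58 and 47.45 CPM in the WT and 32.09, 36.02 and 47.51 CPM in the NPY-tet mice. NPY-tet 3 was just above the lowest WT mouse, so the groups overlapped. Its log2 fold change was -0.45 (SE 0.15; unadjusted p 0.0113, adjusted p 0.724 by edgeR), -0.70 among rRNA-rich and -0.32 among rRNA-poor libraries. Estimates for Mmp16, Mmp17 and Mmp25 ran from -0.43 to 0.78. Mmp24 had 0 to 25 counts, the most in NPY-tet 1, and was not tested.

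Among the other Mmp genes, Mmp19 stood at 25.9, 22.2, 27.7, 24.97 and 19.3 CPM in the WT and 14.6, 12.3 and 24.8 CPM in the NPY-tet mice. NPY-tet 1 and 2 lay below every WT mouse and NPY-tet 3 did not. The estimate was -0.48 (SE 0.22; unadjusted p 0.0478, adjusted p 0.794 by edgeR), -0.69 among rRNA-rich and -0.44 among rRNA-poor libraries. Mmp28, the epidermal enzyme epilysin, varied least of the tested members, by 0.55 in log2 CPM between its lowest and highest library. Its log2 fold change was -0.15 (SE 0.14). Mmp20, known from tooth enamel, and Mmp21 had at most 3 counts in any library.

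**Figure D4:**
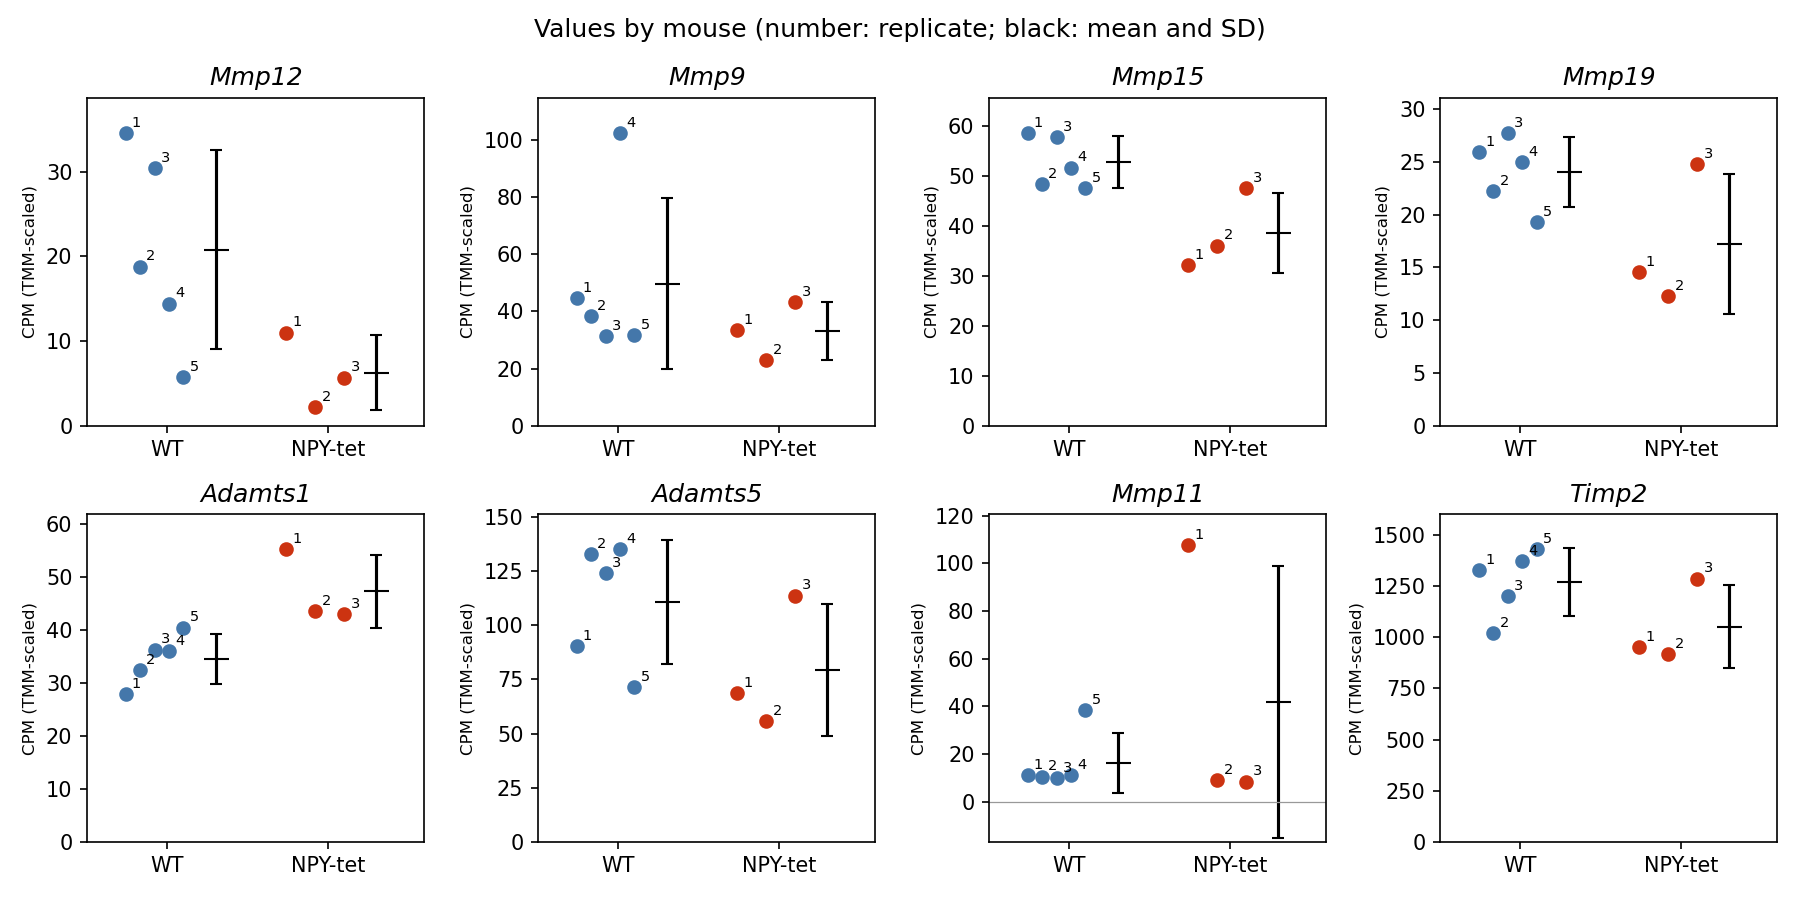
CPM of 8 members by mouse, coloured by genotype, with the mean and SD of each group. Adamts1 is the only one of the 8 without overlap, and NPY-tet 1 sets the high Mmp11 mean of its group.

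The inhibitors gave 0 calls, and 3 of the 4 had negative estimates. Timp2 stood at 1329, 1019, 1199, 1373 and 1429 CPM in the WT and 952, 917 and 1286 CPM in the NPY-tet mice. NPY-tet 1 and 2 lay below every WT mouse and NPY-tet 3 inside the WT range. The estimate was -0.27 (SE 0.19; adjusted p 0.808 by edgeR). Timp1, an inducible inhibitor often measured in fibrosis, was low, with 61 to 96 counts in WT and 53 to 75 in NPY-tet mice and an estimate of -0.27 (SE 0.33). Timp3 stood at 172 ± 35.5 CPM in WT (SD, n = 5) and 163 ± 5.38 CPM in NPY-tet skin (SD, n = 3), an estimate of -0.083 (SE 0.17).

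Timp4 varied most among the inhibitors, at 66.3, 99.4, 110.3, 126 and 65.8 CPM in the WT and 102, 46.3 and 143 CPM in the NPY-tet mice. Both the lowest and the highest library were NPY-tet, and the estimate was 0.056 (SE 0.36). The 10 white adipocyte markers, all tested and all detected in every library, summed to 6125 to 10131 CPM in WT and 3769 to 8672 CPM in NPY-tet libraries. NPY-tet 2 was lowest in both, and the part of adipose content was not tested. Timp1, Timp3 and Timp4 lie inside Syn1, Syn3 and Syn2 on the opposite strand. Syn3 and Syn2 had at most 51 and 249 counts, whereas Syn1 had 30 to 140, fewer than Timp1 in 7 of 8 libraries and more in WT 4 (140 against 69).

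Of the proteoglycan-cleaving enzymes, Adamts1 (ENSMUSG00000022893, chr16:85590715-85600001, mm39) was higher in every NPY-tet mouse than in any WT mouse. It stood at 27.9, 32.4, 36.3, 36.1 and 40.5 CPM in the WT and 55.3, 43.7 and 43.04 CPM in the NPY-tet mice. The gap between the groups, from 40.5 to 43.04 CPM, was small beside the spread within them. Its log2 fold change was 0.45 (SE 0.15; unadjusted p 0.0101, adjusted p 0.708 by edgeR), 0.71 among rRNA-rich and 0.25 among rRNA-poor libraries. Adamts5, which lies nearby on chromosome 16 and cuts the same proteoglycans, had a negative estimate. It stood at 90.4, 133, 124, 135 and 71.3 CPM in the WT and 68.6, 55.8 and 114 CPM in the NPY-tet mice, with overlap, and its estimate was -0.48 (SE 0.27; adjusted p 0.796 by edgeR).

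Adamts4 was low, at 0.222 to 0.902 CPM in WT mice and 2.70, 0.704 and 0.403 CPM in the NPY-tet mice, with NPY-tet 1 the highest. Estimates for Adamts8, Adamts9, Adamts15 and Adamts20 ran from -0.31 to 0.16.

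Procollagen N-proteinases trim the collagens of the dermis. Adamts2 (chr11:50492911-50698400, mm39) stood at 327, 224, 241, 265 and 443 CPM in the WT and 161, 275 and 408 CPM in the NPY-tet mice. NPY-tet 1 was the lowest library and WT 5 the highest, with an estimate of -0.092 (SE 0.30). Without NPY-tet 1 the estimate was 0.19. The fibroblast markers summed to 19589, 11009, 11673, 12210.4 and 24666 CPM in the WT and 2922, 18478 and 25998 CPM in the NPY-tet mice. NPY-tet 1 was lowest in both, and the part of fibroblast content was not tested. Adamts14 stood at 27.2 ± 8.47 CPM in WT (SD, n = 5) and 27.96 ± 11.2 CPM in NPY-tet skin (SD, n = 3), and Adamts3 had 2 to 21 counts.

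Of the remaining ADAMTS genes 0 had an unadjusted p under 0.05 in edgeR. Adamts10, linked to fibrillin microfibrils, stood at 26.3 ± 9.31 CPM in WT (SD, n = 5) and 32.6 ± 6.09 CPM in NPY-tet skin (SD, n = 3), an estimate of 0.31 (SE 0.26). Adamts12, named after its values were seen, stood at 12.1, 11.3, 13.2, 9.63 and 15.9 CPM in the WT and 4.45, 11.2 and 11.6 CPM in the NPY-tet mice, with NPY-tet 1 alone low. Its estimate was -0.46 (SE 0.29; adjusted p 0.808 by edgeR), and -0.12 without NPY-tet 1. It was -1.54 within the rRNA-rich libraries (adjusted p 0.0286 by edgeR), where NPY-tet 1 is the only NPY-tet mouse, and 0.23 within the rRNA-poor ones. Adamts13, the protease of von Willebrand factor, had 0 to 7 counts in WT and 7 to 13 in NPY-tet libraries and was too low to be tested, as was Adamts16. Estimates for Adamts6, Adamts7, Adamts17 and Adamts19 ran from -0.11 to 0.17.

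Between the lowest and highest library the tested members spanned a median of 1.31 in log2 CPM, beside 0.91 for all genes tested. The widest spans were those of Adamts18 (3.98), Mmp12 (3.96) and Mmp11 (3.67). Adamts18 had 2, 7, 12, 3 and 35 counts in the WT and 24, 65 and 14 in the NPY-tet mice. Its highest counts were in WT 5, NPY-tet 1 and NPY-tet 2, the libraries with the highest hair scores, a link not tested. Its log2 fold change was 1.34 (SE 0.88; adjusted p 0.808 by edgeR). It was 0.35 with the hair score as a covariate, 0.47 without NPY-tet 2 and 2.44 without WT 5. Within the rRNA-rich libraries it was 0.47 (adjusted p 0.937 by edgeR). Within the rRNA-poor ones it was 4.09, where WT 4 with its 3 counts is the only WT mouse.

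**Figure D5:**
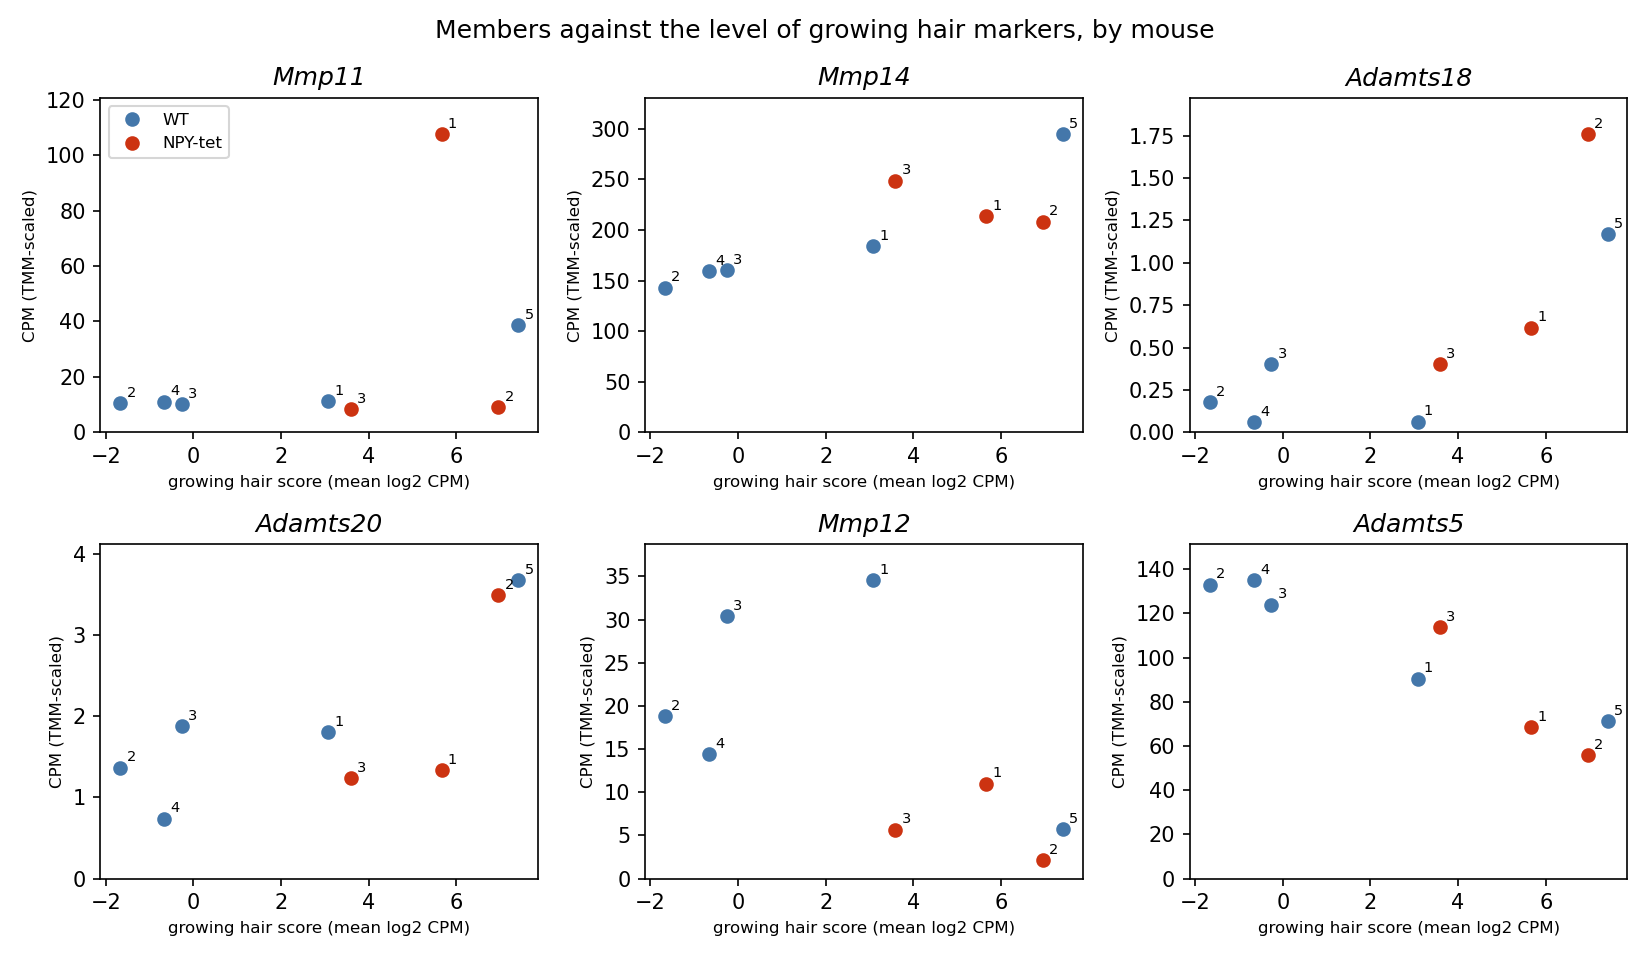
CPM of 6 members (vertical axes) against the hair score of the same library (horizontal axes, mean log2 CPM of 15 markers), 1 point per mouse coloured by genotype. Adamts18 is highest and Adamts5 lowest in the 3 libraries with a score above 5, while Mmp11 is high in only 2 of them.

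Other members are set beside the hair score by a choice made after their values were seen. Adamts20, which melanoblasts need to survive in mice, was highest in WT 5 and NPY-tet 2, at 3.68 and 3.49 CPM against 0.739 to 1.88 CPM in the others. The 6 melanocyte markers summed to 120.1 and 109 CPM there, against 23.6 to 43.03 CPM elsewhere, with Tyr at 0 in some of the others. Adamts5 stood at 55.8 to 71.3 CPM in the 3 libraries with the highest hair scores and at 90.4 to 135 CPM in the other 5. With the hair score as a covariate its log2 fold change was 0.0012, that of Mmp14 -0.037 and that of Mmp12 -1.15. The NPY-tet scores, 3.58 to 6.96, were above those of every WT mouse but WT 5. Hair and genotype therefore cannot be fully told apart in that fit, and the part of hair growth was not tested. All 15 hair markers had positive estimates and 0 passed. They summed to 25.8 to 6869 CPM in WT and 436 to 4569 CPM in NPY-tet libraries, and Krt34, Krt81, Krt86 and Krt73 were at 0 in 1 library or more.

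Genes that activate, restrain or resemble these enzymes gave 0 calls as well. Of 34 such genes in 4 lists 33 were tested, with 2 higher and 3 lower at an unadjusted p under 0.05 by edgeR and a median log2 fold change of -0.019. That is 15.2% of those tested, beside 5.99% of all genes. With no overlap there were 2, Papln and Adam8, or 6.06%, beside 3.78% of all genes. Plau, which encodes the plasminogen activator urokinase, stood at 67.0 ± 17.8 CPM in WT (SD, n = 5) and 43.8 ± 7.82 CPM in NPY-tet skin (SD, n = 3), an estimate of -0.61. Serpine2, an inhibitor of urokinase and thrombin, stood at 101 ± 19.04 and 73.03 ± 22.97 CPM. Papln, an ADAMTS-like gene without protease domain, stood at 12.05 ± 1.11 and 16.8 ± 2.67 CPM with no overlap, an estimate of 0.48 (adjusted p 0.704 by edgeR). Adamtsl2, another such gene, stood at 5.04 ± 1.25 and 10.2 ± 6.20 CPM. Adam8, a leukocyte protease of the related ADAM family, stood at 15.2 ± 3.46 and 9.28 ± 2.27 CPM with no overlap, an estimate of -0.71 (adjusted p 0.686 by edgeR). Adam19 stood at 21.9 ± 3.06 and 18.5 ± 2.78 CPM. Of the proteoglycan and related substrates, Comp stood at 2.66 ± 0.827 and 1.705 ± 0.174 CPM, and Acan, the aggrecan gene, at 0.165 ± 0.320 and 0.622 ± 0.659 CPM.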

How the data were processed

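Poly-T selected RNA was sequenced as non-directional libraries, per the labels' protocols. The authors deposited counts, whole numbers per Ensembl gene with 1 column per mouse, and FPKM. In the deposited FPKM, counts are scaled to gene length and to a size constant within a library. The submitters' processing notes name HISAT2 2.0.5, featureCounts 1.5.0-p3 and mm39 without roles. Columns were joined by the mouse numbers in the sample titles. From WT 3 on, the library names in the descriptions carry other mouse numbers, with the same genotype.

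Deposited counts were fitted with edgeR 4.0.16 in R 4.3.3 (filterByExpr, TMM, robust quasi-likelihood F-test, two-sided, genotype as the only term). P-values were Benjamini-Hochberg adjusted over 18495 genes, with a threshold of 0.05. The SE of an estimate is its size over the root of its F. Log2 CPM used a prior count of 2. DESeq2 1.42.0 and limma 3.58.1 (log2 FPKM plus 1 or 0.1) were alternatives, and the fits were tested on simulated data.

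Members and lists were chosen with earlier results of these data known. Genes named with tests are the Timp genes, members with an unadjusted p under 0.05 or no overlap, the most abundant member of each role, the 3 of widest range and up to 2 of each related list by p.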

Additional observations from a re-analysis of the deposited data

Results flagged for a closer look

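In 3 of 35 tested members 1 WT mouse stood far from the other 4. For normally distributed values chance gives about 1 such group in 20, and the CPM were not checked for that form. Mmp11 is also among the members named for their wide range. Mmp11 was at 38.6 CPM in WT 5, where the next highest WT mouse was at 11.3 CPM. Mmp14 was at 295 CPM in the same mouse, where the next was at 184 CPM. Mmp9 was at 102 CPM in WT 4, where the next was at 44.8 CPM. WT 5 had the highest hair score of the 8 libraries, 7.41, and its part in these values was not tested.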

How the results depend on the processing

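Over all genes 1 passed the threshold. The count was 21 with no filter on low counts, 61 by DESeq2, 2 by limma on FPKM with either pseudocount, 11 with ribosomal RNA content as a term, 332 among rRNA-rich and 227 among rRNA-poor libraries, and 1 to 8 with each library left out in turn (8 without NPY-tet 3). Of the members 0 passed under each alternative run, 0 to 0 with each library left out, except 1 among rRNA-rich and 3 among rRNA-poor libraries. Unadjusted calls ranged from 1 to 7 members with each library left out, and the count over all genes moved too. Without NPY-tet 1 there were 1 of 36 members and 628 of 19023 genes. Without WT 5 there were 7 of 34 members and 1659 of 18207 genes. Without NPY-tet 3 there were 5 of 36 members and 2619 of 19120 genes. With ribosomal RNA content (as rich or poor set) as a term there were 5 of 35 members and 1874 of 18495 genes. With the hair score there were 1 of 35 members, Mmp25, and 650 of 18495 genes.

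Some estimates changed sign, and the cause was not tested. Among rRNA-poor libraries the log2 fold change was 0.35 for Adamts2, 0.042 for Mmp2, -0.043 for Mmp3, -0.35 for Mmp11, 0.31 for Timp1 and -0.42 for Timp4. Among rRNA-rich libraries it was -0.16 for Mmp3. With ribosomal RNA content (as rich or poor set) as a term it was -0.11 for Mmp3 and -0.041 for Timp4. With the hair score it was 0.0012 for Adamts5, -0.084 for Mmp3, -0.037 for Mmp14 and 0.0018 for Mmp28. By limma Timp4 was at -0.030 (pseudocount 1) and -0.039 (pseudocount 0.1). With each library left out the ranges were -0.46 to 0.19 for Adamts2, -0.39 to 0.0082 for Mmp2, -0.071 to 0.14 for Mmp3, -0.89 to 1.96 for Mmp11, -0.14 to 0.041 for Timp3 and -0.33 to 0.39 for Timp4. The range for Adamts18, 0.47 to 2.44, was wide without a change of sign. Adamts1, Adamts10, Mmp12, Mmp15, Mmp19 and Timp2 had the same direction under every alternative in which they were tested. The alternatives reuse the same mice, and Adamts1 did not overlap between the groups, so a kept direction is no independent support.

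With the replicate number as a block 2 genes passed. No NPY-tet mouse shares the number of WT 4 or WT 5, so genotype estimates in that fit rest on replicates 1 to 3 alone. A shift there cannot be told apart from leaving those WT mice out. At an unadjusted p under 0.05 by edgeR there were 7 of 35 members, beside 2029 of 18495 genes. The log2 fold change in that fit was 0.021 for Adamts2, 0.031 for Mmp2, 0.079 for Timp3 and -0.020 for Timp4. Same-numbered libraries correlated at -0.044, -0.11 and 0.30 in their deviations from the group means, and differently numbered ones at -0.45 to 0.35. So few values cannot settle whether the numbers pair the mice. The 11 members left out of the test were too low for this depth.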
